A study of Mus musculus with 4 samples.

Results

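Hepatic stellate cells were followed through 10 genes in liver RNA of untreated mice, of 48709 genes counted in each library. The genes were taken by name and mapped to Ensembl identifiers. Of these, 5 are used as identity genes of stellate cells (Lrat, Reln, Des, Pdgfrb, Dcn), and 5 are used to follow activation and scar matrix (Acta2, Col1a1, Col1a2, Col3a1, Timp1). Not all of these genes are particular to stellate cells. The comparison asks whether the levels of these genes differed between livers labelled WT and DDI2-KO. Of the 10 genes, 9 were tested with 2 mice a group, and none of these passed in either direction. Timp1 had too few reads to be tested.

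Stellate cells lie between the hepatocytes and the sinusoidal endothelium and store vitamin A as retinyl esters. After injury they lose these stores, take on the contractile features of myofibroblasts and secrete fibrillar collagen, with TGF-beta and PDGF as main drivers. They are the main source of scar matrix in the injured liver.

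The 4 libraries came from adult C57BL/6 mice that received no treatment, 2 labelled WT and 2 labelled DDI2-KO (genotype DDI2-/-). DDI2-KO mice were DDI2 flox/flox with Cre recombinase under the albumin promoter, and WT mice were littermates that, by the described mating, carried the floxed allele without Cre. The albumin promoter is active in hepatocytes, so the gene was not targeted in the stellate cells that the 10 genes are used to follow. The libraries held 22501208 to 34109018 reads on genes, and 3 reads corresponded to 0.0880 to 0.133 CPM (reads of a gene per 1000000 reads on genes) before scaling. Levels below are CPM after TMM scaling of library sizes. Ddi2 itself showed no drop with the DDI2-KO label. It was at 141 and 123 CPM in WT and 157 and 164 CPM in DDI2-KO (log2 fold change 0.28, 95% interval -0.10 to 0.67, edgeR adjusted p = 0.349), so its level went against the label in both. The counts are for the whole gene, and the part between the LoxP sites was not counted separately, so they do not check the labels. DDI2-KO stands below for the libraries labelled so, and each direction rests on that label. The samples were liver by their markers, since Alb was between 122390 and 154589 CPM.

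In bulk liver, fewer stellate cells and less RNA per stellate cell cannot be told apart.

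The start regions of Acta2, Col1a2 and Timp1 are shown because these genes are induced on activation and each window holds a short element of a kind known from studies of such genes. RefSeq-based windows on GRCm38.p6, from 250 bases before the annotated start to 50 after, were found for 7 of the 10 genes. The sequences are written 5′ to 3′ on the gene's strand. Capitals mark CArG-like boxes in Acta2, which are bound by serum response factor (CC and GG around an A/T-rich core with at most 1 other base), the letters CCAAT or their reverse complement in Col1a2, and the letters TGAGTAA, an AP-1 type element, in Timp1.
Acta2, chr19:34255324-34255623, minus strand: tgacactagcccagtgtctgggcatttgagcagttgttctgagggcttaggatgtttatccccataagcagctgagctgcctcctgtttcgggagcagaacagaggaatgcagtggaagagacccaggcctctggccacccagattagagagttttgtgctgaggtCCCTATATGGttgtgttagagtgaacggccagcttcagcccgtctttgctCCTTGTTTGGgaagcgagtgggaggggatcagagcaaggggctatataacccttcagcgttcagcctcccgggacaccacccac
Col1a2, chr6:4505368-4505667, plus strand: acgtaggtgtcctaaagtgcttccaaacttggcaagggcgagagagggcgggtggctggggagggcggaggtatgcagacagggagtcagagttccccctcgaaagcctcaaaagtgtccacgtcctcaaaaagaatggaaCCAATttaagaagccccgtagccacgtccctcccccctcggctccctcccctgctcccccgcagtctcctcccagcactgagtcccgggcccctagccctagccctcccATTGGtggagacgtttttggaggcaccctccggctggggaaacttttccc
Timp1, chrX:20869916-20870215, plus strand: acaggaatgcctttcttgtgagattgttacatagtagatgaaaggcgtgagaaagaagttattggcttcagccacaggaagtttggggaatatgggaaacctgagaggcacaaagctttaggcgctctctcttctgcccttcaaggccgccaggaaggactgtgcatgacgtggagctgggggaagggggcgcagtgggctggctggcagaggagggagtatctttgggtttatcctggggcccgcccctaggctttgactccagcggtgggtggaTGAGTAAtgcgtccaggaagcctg

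In Acta2 the CArG-like boxes began 84 and 34 bases before the annotated start. CArG-like boxes were found in 9.98% of all 32851 windows of this length, and among the members also in Lrat and Col1a2. CCAAT was common, with 37.4% of windows, and was also found in those of Lrat and Timp1, whereas TGAGTAA was found in 2.68%. In Col1a2 the marked letters began 109 bases before the annotated start and at base 1 after it. In Timp1 they began at base 27 after it. The AP-1 consensus TGANTCA was found in 7.81% of windows and in none of the 7 member windows. CAGACA, a SMAD type element, was found in 21.0% of windows and in those of Col3a1, Des, Col1a2 and Acta2, and TATAAA in 13.6% of windows and in that of Col3a1. All motifs were searched on both strands, and no 2 matches overlapped in a member window. These are matches of letters and not shown binding sites.

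**Figure D1:**
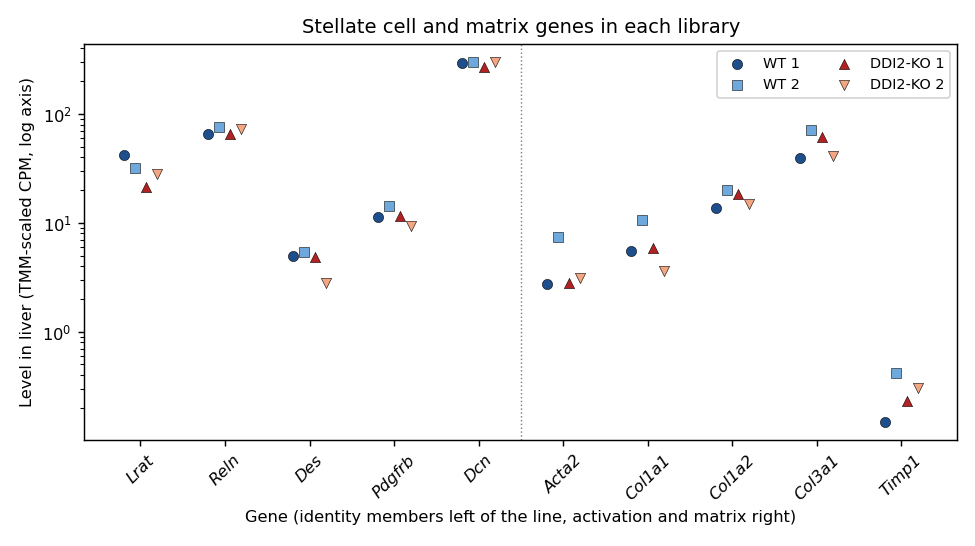
Level of each of the 10 genes in the 4 libraries, as TMM-scaled CPM on a log axis, with 1 point for each library. Levels ran from under 1 CPM (Timp1) to 300.3 CPM (Dcn), and in Acta2 and Col1a1 the library WT 2 stood above the other 3.

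Among the identity genes, Lrat was the gene nearest to a difference. Lrat (ENSMUSG00000028003, chromosome 3 of GRCm38, 82892579 to 82903973) encodes lecithin retinol acyltransferase, which makes the retinyl esters that stellate cells store. It drew 1416 and 982 WT reads and 556 and 645 DDI2-KO reads, or 42.1 and 31.8 CPM against 21.5 and 28.1 CPM. Both DDI2-KO libraries lay below both WT libraries, and the means were 36.9 ± 7.31 and 24.8 ± 4.66 CPM (SD, n = 2). The log2 fold change of DDI2-KO over WT was -0.58 (standard error, SE, 0.21, 95% interval -1.05 to -0.10), and edgeR gave an adjusted p of 0.148 (0.0229 before adjustment). It was the single member whose difference between group means was larger than both differences between replicates.

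Reln and Dcn were close to equal in both groups. Reln (ENSMUSG00000042453, chromosome 5, 21884454 to 22344702) encodes reelin, a secreted glycoprotein that in liver marks stellate cells. Its levels were 65.9 and 76.1 CPM in WT and 64.8 and 73.0 CPM in DDI2-KO, which overlap, and its log2 fold change was -0.043 (95% interval -0.42 to 0.33, edgeR adjusted p = 0.902). Dcn (ENSMUSG00000019929, chromosome 10, 97479609 to 97518143) encodes decorin, a small proteoglycan that binds collagen fibrils and TGF-beta. At 294 and 300.3 CPM in WT and 270 and 300.1 CPM in DDI2-KO, it was the member with the highest level in every library, and its log2 fold change was -0.060 (95% interval -0.45 to 0.33, edgeR adjusted p = 0.867). For both genes the interval left out a change of 2-fold in either direction.

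Des (ENSMUSG00000026208, chromosome 1, 75360329 to 75368579) encodes desmin, the intermediate filament of muscle that rodent stellate cells also make. Its levels were 4.97 and 5.37 CPM in WT and 4.87 and 2.83 CPM in DDI2-KO. The groups did not overlap, but DDI2-KO 1 lay next to the WT libraries and only DDI2-KO 2 stood apart (log2 fold change -0.42, 95% interval -1.09 to 0.25, edgeR adjusted p = 0.426). Pdgfrb (ENSMUSG00000024620, chromosome 18, 61045150 to 61085061) encodes the PDGF receptor beta, through which PDGF drives stellate proliferation. It was at 11.3 and 14.2 CPM in WT and 11.6 and 9.36 CPM in DDI2-KO, which overlap (log2 fold change -0.28, 95% interval -0.77 to 0.20, edgeR adjusted p = 0.461).

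Acta2, which encodes the smooth muscle actin of myofibroblasts and vessel walls, was not higher in DDI2-KO (ENSMUSG00000035783, chromosome 19, 34241090 to 34255590). It drew 93 and 228 WT reads and 73 and 71 DDI2-KO reads, or 2.77 and 7.38 CPM against 2.82 and 3.09 CPM. WT 1 matched the DDI2-KO libraries and WT 2 stood above the other 3. The log2 fold change was -0.78 (SE 0.45, 95% interval -1.83 to 0.28, edgeR adjusted p = 0.343), and without WT 2 it was 0.094, so its sign depended on that library.

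The fibrillar collagen genes followed the same library. Col1a1 and Col1a2 encode the chains of type I collagen, the main fibre of scar, and Col3a1 encodes type III collagen. Col1a1 (ENSMUSG00000001506, chromosome 11, 94936224 to 94953042) was at 5.47 and 10.5 CPM in WT and 5.87 and 3.61 CPM in DDI2-KO, with a log2 fold change of -0.75 (SE 0.37, 95% interval -1.60 to 0.11, edgeR adjusted p = 0.264). Col1a2 (ENSMUSG00000029661, chromosome 6, 4504814 to 4541544) was at 13.8 and 19.8 CPM in WT and 18.4 and 14.8 CPM in DDI2-KO, with a log2 fold change of -0.018 (95% interval -0.53 to 0.49, edgeR adjusted p = 0.970). Col3a1 (ENSMUSG00000026043, chromosome 1, 45311538 to 45349706) was at 39.5 and 71.0 CPM in WT and 61.0 and 41.3 CPM in DDI2-KO, with a log2 fold change of -0.11 (95% interval -0.87 to 0.64, edgeR adjusted p = 0.869). All 3 genes were highest in WT 2, and the groups overlapped in each. Without WT 2 the log2 fold change was -0.20 for Col1a1, 0.27 for Col1a2 and 0.37 for Col3a1, so the sign of Col1a2 and Col3a1 turned, and both also turned without DDI2-KO 2 (0.14 and 0.15). The sign of Col1a2 turned as well with library totals in place of TMM (0.030) and under limma-voom (0.0026).

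Timp1 (ENSMUSG00000001131, chromosome X, 20870166 to 20874735) encodes an inhibitor of matrix metalloproteinases that is induced in fibrotic liver. It was barely detected, with 5 and 13 WT reads and 6 and 7 DDI2-KO reads (0.149 and 0.421 against 0.232 and 0.305 CPM), and did not pass the filter on low counts. Both DDI2-KO values lay between the WT values. Without the filter its log2 fold change was -0.065 (SE 0.72, edgeR adjusted p = 0.964), so at this depth even a 2-fold difference of Timp1 was not detectable.

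**Figure D2:**
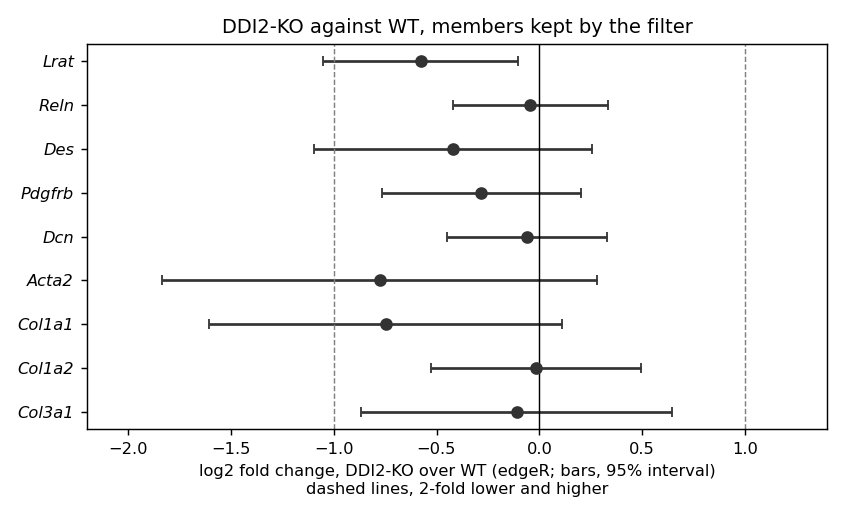
Fitted log2 fold change of DDI2-KO over WT for the 9 genes kept by the filter, with points for the edgeR estimate and bars for its 95% interval. The upper ends ran from -0.10 (Lrat) to 0.64 (Col3a1) and stayed left of a 2-fold rise in all 9 genes.

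Of the 9 genes tested, 0 passed the threshold of 0.05 on edgeR's adjusted p, against 2.53% of the 13699 genes tested in all (1.33% higher and 1.20% lower in DDI2-KO). DESeq2 and limma-voom also called 0 of them. At an unadjusted p under 0.05 edgeR gave 1 gene (Lrat), against 23.5% of all genes. The upper end of the 95% interval was below a log2 fold change of 1 in all 9 genes, and for the 4 activation genes tested it corresponded to 1.08-fold (Col1a1), 1.22-fold (Acta2), 1.41-fold (Col1a2) and 1.56-fold (Col3a1). The lower end was above -1 in 5 of the 9, so a 2-fold lower level was left out for Reln, Dcn, Pdgfrb, Col1a2 and Col3a1 and not for the remaining 4. These limits depend on single libraries. Without WT 2 the upper end was 2.00-fold for Col3a1, 1.92-fold for Acta2, 1.84-fold for Col1a2 and 1.52-fold for Col1a1, and without DDI2-KO 1 or DDI2-KO 2 it was 3.68-fold or 3.42-fold for Acta2 and 2.32-fold or 3.14-fold for Col3a1, so a doubling of Col3a1 (any of the 3) or of Acta2 (either DDI2-KO library left out) was no longer left out. A 2-fold lower level was no longer left out for Col3a1 without WT 1 or either DDI2-KO library, or for Pdgfrb without WT 1.

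All 9 fitted log2 fold changes were below 0, as were 51.3% of those of all genes tested. Their median was -0.28, beside -0.015 over all genes. Without WT 2 the median was -0.044 and 5 of the 9 were below 0, and with library totals 7 of the 9 were. In CPM, 2 of the 10 genes (Lrat, Des) had both DDI2-KO libraries below both WT libraries, against 27.7% of the 13699 genes tested, and 0 had them above, against 28.0%. The 10 include Timp1, which was not tested.

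**Figure D3:**
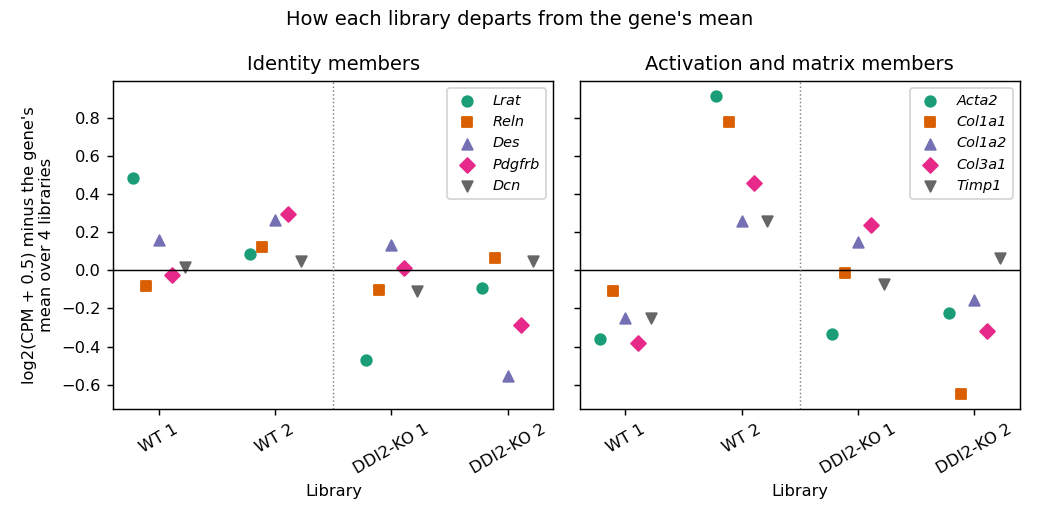
Departure of each library from the gene's own mean over the 4 libraries, on the scale of log2(CPM + 0.5), for identity genes (left) and activation and matrix genes (right). WT 2 was above the mean in all 10 genes, and by 0.91 in Acta2, the widest departure in the plot.

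In all 5 activation and matrix genes the WT replicates differed by more than the group means did. WT 2 was the highest of the 4 libraries in 9 of the 10 genes, with Lrat as the exception, and on the log2 scale it exceeded WT 1 by 1.42 in Acta2, 0.94 in Col1a1, 0.85 in Col3a1 and 0.52 in Col1a2, but by 0.21 in Reln and 0.032 in Dcn. In DDI2-KO the second library was lower than the first in 5 of the 10 genes, Des, Pdgfrb and the 3 collagens. Activation genes were also read against identity genes of the same library, as a description and not a measure of activation per stellate cell. Timp1, which the filter left out, lay below the added 0.5 CPM in every library. The mean log2(CPM + 0.5) of the 5 activation and matrix genes minus that of the 5 identity genes was -2.57 and -1.82 in WT and -2.09 and -2.28 in DDI2-KO. Both DDI2-KO values lay between the WT values.

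Between genes, levels were compared per kilobase of annotated exon. In WT the order was Dcn (50.9 CPM per kilobase), Lrat (6.91), Col3a1 (5.63), Reln (2.99), Pdgfrb (2.33), Acta2 (2.31), Des (1.38), Col1a2 (1.35), Col1a1 (1.22) and Timp1 (0.321). The values of the WT libraries overlapped between Lrat and Col3a1, and between each pair of neighbours from Pdgfrb to Col1a1. DDI2-KO kept the same genes at both ends, with Dcn at 48.8 and Timp1 at 0.302 CPM per kilobase, while Col3a1 (5.21) stood above Lrat (4.63) and Col1a2 (1.34) above Des (1.03), in each case with overlapping libraries. The middle of the order depends on the length used. By the longest protein-coding transcript 5 of the 10 genes held their place in WT, and Col1a2 moved from 8 to 5 with 3.15 CPM per kilobase.

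Some reads of other genes may be shared with the members. Stretches of 50 bases shared with transcripts of other genes made up 0.353% of the Acta2 transcript and 1.67% of that of Col3a1, which an annotated gene on the same strand (Gm47302) overlaps, and none of the other 8. Opposite-strand genes overlap 7.27% of the Des transcript and 2.10% of that of Reln, and whether strand was used in counting is not given in the sources used here.

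Beside the members, 12 related lists of 152 genes were read from the same fit, and 134 passed the filter. Bulk liver counts do not tell which cells held these transcripts, and hepatocytes may hold part of them. In these lists 3 genes passed the test, 2 higher and 1 lower, which is 2.24% of those tested against 2.53% of all genes. The median log2 fold change over the lists was -0.071. The count was 0 under limma-voom and without robust estimation, 8 under DESeq2 and 11 when low counts were kept. DESeq2 called Ccn2, Nt5e, Pdgfc, Plin2 and Pnpla3 in addition to the 3 of the main fit. When low counts were kept, Rgs5, Myh11, Ogn, Col15a1, Dgat1, Col4a5, Pdgfc and Plin2 were called in addition to the same 3.

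Col27a1 (ENSMUSG00000045672, chromosome 4, 63214004 to 63334991), a fibrillar collagen best known from cartilage, was lower. It drew 297 and 325 WT reads and 106 and 101 DDI2-KO reads, or 8.83 and 10.5 against 4.10 and 4.39 CPM, with a log2 fold change of -1.19 (SE 0.21, edgeR adjusted p = 0.0404). The libraries of each group lay close together and far from the other group, in contrast to Col1a1. Its adjusted p ranged from 0.000692 to 0.135 over the alternatives, and it was 0.0814 without WT 1, 0.135 without WT 2 and 0.0579 without DDI2-KO 1. None of the other 4 fibrillar collagens tested passed, and Col2a1 and Col11a1 had 0 reads in every library, which allows up to 0.131 CPM after scaling in the smallest library.

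Smad7 (ENSMUSG00000025880, chromosome 18, 75367529 to 75395935), an inhibitory SMAD that is itself induced by TGF-beta and BMP signals, was higher. It drew 221 and 330 WT reads and 516 and 517 DDI2-KO reads, or 6.57 and 10.7 against 19.9 and 22.5 CPM, with a log2 fold change of 1.30 (SE 0.25, edgeR adjusted p = 0.0438). It was the single one of the 17 TGF-beta signalling genes tested to pass, and this call was lost without WT 1 (adjusted p = 0.150), without DDI2-KO 1 (0.0871) and without DDI2-KO 2 (0.102). Smad7 is expressed in many liver cells, and these data do not tell which cells held it. The matrix regulator Ccn2, another TGF-beta target, had values in the opposite direction. Chosen after its values were seen, Ccn2 was at 4.22 and 11.1 CPM in WT and 1.93 and 2.52 CPM in DDI2-KO (log2 fold change -1.78, SE 0.47, edgeR adjusted p = 0.0920), and opposite-strand exons overlap 14.1% of its transcript. Its size depended on WT 2: the log2 fold change was -0.92 without WT 2 and -2.31 without WT 1. It was -1.59 without DDI2-KO 1 and -1.97 without DDI2-KO 2.

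Vldlr (ENSMUSG00000024924, chromosome 19, 27216484 to 27254231) encodes a receptor for reelin that also binds triglyceride-rich lipoproteins. It rose from 11.6 and 10.9 CPM in WT to 20.7 and 27.7 CPM in DDI2-KO (389 and 338 against 535 and 637 reads), a log2 fold change of 1.10 (SE 0.20, edgeR adjusted p = 0.0404). Its adjusted p was 0.124 without WT 1 and 0.119 without WT 2. Which cells held Vldlr cannot be told from these data. Reln itself did not pass, as given above. The remaining genes of this list, Lrp8 and Dab1, had at most 12 reads in any library and were not tested.

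**Figure D4:**
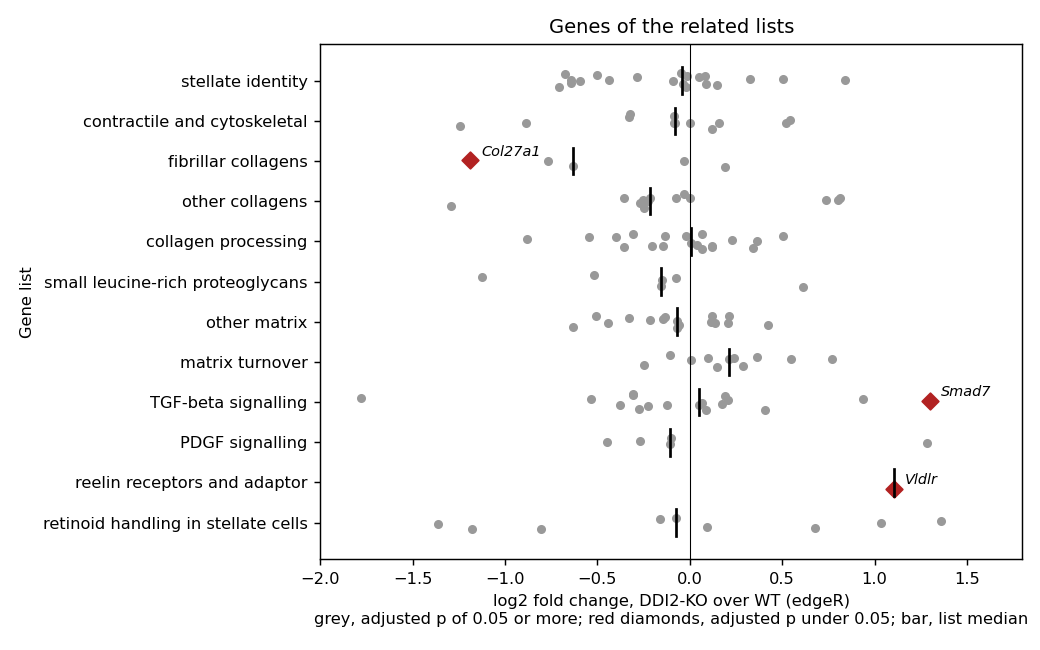
Fitted log2 fold change of DDI2-KO over WT for each tested gene of the 12 related lists, with a bar at each list's median. Col27a1, Smad7 and Vldlr, drawn as red diamonds, are the 3 genes with an adjusted p under 0.05, and most other genes lie between -1 and 1.

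No gene of the other 9 lists passed the test. Of the 20 further stellate identity genes 13 had a log2 fold change below 0 and 7 above, with a median of -0.042. Rgs5, a regulator of G protein signalling in pericytes and stellate cells, came nearest to the threshold, at 62.6 and 75.4 CPM in WT and 38.4 and 53.0 CPM in DDI2-KO (log2 fold change -0.59, edgeR adjusted p = 0.127), while the chemokine Cxcl12 was at 385 and 364 against 355 and 375 CPM. In Rgs5 the groups did not overlap, as in Lrat.

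Of 12 contractile and cytoskeletal genes tested, 7 were below 0 and 5 above, with a median of -0.081. Myh11, the myosin of smooth muscle, was at 2.41 and 5.31 CPM in WT and 1.93 and 1.31 CPM in DDI2-KO (log2 fold change -1.24, edgeR adjusted p = 0.139), with WT 2 the highest as in Acta2. Its log2 fold change was -0.57 without WT 2 and -1.70 without WT 1. Caldesmon (Cald1) was at 328 and 329 against 230 and 292 CPM (edgeR adjusted p = 0.321).

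Most matrix lists outside the members had more genes below 0 than above, with no call other than Col27a1. Of the 5 fibrillar collagens tested 4 were below 0, with a median of -0.63. Of the 13 other collagens 9 were below 0, with a median of -0.21, with Col18a1, the most abundant, at 769 and 681 CPM in WT and 785 and 432 CPM in DDI2-KO, and Col15a1 at 8.66 and 5.34 against 13.3 and 11.4 CPM (log2 fold change 0.81, edgeR adjusted p = 0.117). Of the 19 collagen processing genes tested 9 were below 0, with a median of 0.0052, and P3h1, a prolyl hydroxylase of collagen, came nearest to the threshold (log2 fold change 0.51, edgeR adjusted p = 0.173), while P4hb differed by 0.12. Of the 6 small leucine-rich proteoglycans tested 5 were below 0, with a median of -0.15, with Bgn at -0.15 and Ogn at -1.12 (edgeR adjusted p = 0.135). Of the 16 other matrix genes 10 were below 0, with a median of -0.071, with Fn1 (fibronectin) at -0.13 and Thbs2 at 0.42 (edgeR adjusted p = 0.305).

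Of 11 matrix turnover genes tested, 9 were above 0 and 2 below, with a median of 0.21. The urokinase gene Plau was at 2.47 and 2.65 CPM in WT and 3.82 and 4.92 CPM in DDI2-KO (log2 fold change 0.77, edgeR adjusted p = 0.135), and the metalloproteinase Mmp19 differed by 0.29 (edgeR adjusted p = 0.368). TGF-beta signalling genes had a median of 0.051, with 9 above 0 and 8 below. The 5 PDGF signalling genes had a median of -0.11, with 4 below 0 and 1 above. The 1 above was Pdgfc, at 5.41 and 2.65 CPM in WT and 8.62 and 11.1 CPM in DDI2-KO (log2 fold change 1.29, edgeR adjusted p = 0.0823). The receptor Pdgfra differed by -0.10, near the -0.28 of Pdgfrb. The 9 retinoid handling genes tested, beside Lrat, had a median of -0.074, with Dgat1, which can also esterify retinol, at 0.68 (edgeR adjusted p = 0.0704) and the retinol carrier Rbp4 at 0.095.

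Markers of other cells that can express some of the members, identity genes included, are given beside the members for that reason. The 6 smooth muscle markers summed to 9.31 and 16.02 CPM in WT and 8.31 and 4.35 CPM in DDI2-KO, with Actg2 at 0 reads in DDI2-KO 1. None of the 4 tested passed, and all 4 had a log2 fold change below 0, among them Smtn at -0.89 (edgeR adjusted p = 0.257). The 8 portal fibroblast markers summed to 32.99 and 35.1 CPM in WT and 24.3 and 26.9 CPM in DDI2-KO, and 6 of the 7 tested were below 0, with elastin (Eln) at -0.92 (edgeR adjusted p = 0.106) and Gas1 at -0.57. WT 2 was the highest library in both sums, as it was in Acta2, Col1a1 and Col3a1. The part of these cells in the members' values was not tested.

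Markers of the remaining cell types, in summed CPM, were 160662 and 181758 in WT against 150395 and 152306 in DDI2-KO for hepatocytes, where Alb and Serpina1a differed by -0.20 and -0.31. Of the 6 hepatocyte markers, 4 had a log2 fold change below 0 and 2 above, with Ttr at 0.29. Sinusoidal endothelial markers summed to 459 and 420 against 431 and 427 CPM, and Stab2, a scavenger receptor of these cells, was lower (73.7 and 61.2 against 32.9 and 29.9 CPM, log2 fold change -1.10, SE 0.17, edgeR adjusted p = 0.0288, and 0.109 without WT 1). Of the 6 endothelial markers, 4 had a log2 fold change above 0, and Stab2 and Lyve1 were below. Kupffer cell markers summed to 581 and 502 against 718 and 615 CPM. Of these, 5 were above 0, with Adgre1 at 0.58 (edgeR adjusted p = 0.0744) and Cd5l at 0.36, and Marco was below, at -0.33. Cholangiocyte markers summed to 56.7 and 53.1 against 70.8 and 69.1 CPM, mostly Spp1, which differed by 0.37 (edgeR adjusted p = 0.199) and is also made by activated stellate cells. Erythroid markers summed to 84.9 and 163 against 65.4 and 54.1 CPM, with Hba-a1 lower (log2 fold change -1.94, SE 0.30, edgeR adjusted p = 0.0338, and 0.196 without DDI2-KO 1 and 0.213 without DDI2-KO 2). Of the Hba-a1 transcript 67.5% is shared with Hba-a2, so its count is uncertain.

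The last marker lists had low counts. Mesothelial markers summed to 2.32 and 4.40 CPM in WT and 3.86 and 3.48 CPM in DDI2-KO (Upk3b differed by 0.068 and Msln by 0.42), lymphocyte markers to 6.16 and 6.93 against 4.44 and 5.35 CPM (Ms4a1 by -0.31 and Cd3e by -0.71), and neutrophil markers to 1.46 and 2.20 against 2.36 and 2.13 CPM (S100a9 by 0.35, with Ly6g at 0 reads in every library). Adipocyte markers summed to 0.327 and 0.324 against 1.16 and 0.914 CPM, mostly Cidec (log2 fold change 1.87, edgeR adjusted p = 0.0729), while Plin1 and Lep had 0 reads in every library.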

How the data were processed

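Liver mRNA of 2 WT and 2 DDI2-KO mice was sequenced from TruSeq stranded libraries. The authors deposited raw counts of reads per Ensembl gene. Their processing notes name cutadapt 1.8, STAR 2.5.2b, HTSeq 0.6.1 and GRCm38, and the annotation release and strand setting are not given in the sources used here. The 5 summary lines of the counter, 35.3% to 42.3% of all lines summed, were left out. Symbols and coordinates are from GENCODE M21 (GRCm38), which held 48349 of 48709 identifiers.

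Counts were tested with edgeR 4.0.16 in R 4.3.3 (TMM, filterByExpr, robust glmQLFit, glmQLFTest), with Benjamini-Hochberg adjusted p over all genes tested and 0.05 as threshold. Standard errors and 95% intervals were taken from the F statistic and its degrees of freedom. The study used limma, run here as an alternative. The alternatives were other scalings, DESeq2 1.42.0, limma-voom (limma 3.58.1), other filters, no robust estimation, a replicate block and leaving out each library. The main edgeR fit was also run on simulated counts, and the outcome is not given here. The 10 genes and the lists were chosen with earlier results of these data known. Named genes are the members, list genes past the threshold and otherwise each list's most abundant gene and lowest p, and Ccn2 was added later. Some further genes were named to show the other direction in a list or a call in another setting. Replicates were not one library deposited again, since chi-square over its degrees of freedom was 69.7 between the WT and 37.4 between the DDI2-KO libraries. P-values and intervals rest on the spread between 2 mice a group, which edgeR moderates with the spread of the other genes.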

Additional observations from a re-analysis of the deposited data

Results flagged for a closer look

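Reads that HTSeq assigned to more than 1 gene were outside the comparisons, and they were higher in both DDI2-KO libraries than in the WT libraries. They came to 3.49% and 3.66% of the reads on genes in DDI2-KO against 2.496% and 2.54% in WT. With 2 libraries in a group, no library was tested for standing apart from its group.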

How the results depend on the processing

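No member passed the threshold under any of the 13 other settings, and the lowest adjusted p of a member in any of them was 0.0505 (Lrat). The members' median log2 fold change stayed below 0, between -0.34 and -0.18 with all libraries and between -0.45 and -0.044 with each library left out, where the filter kept 9 or 10 members and the lone library of a group is assumed to vary like the other group. Over all genes 346 were called, 940 under DESeq2, 136 under limma-voom, 1544 without the filter, 152 without robust estimation and 153 to 631 with a library left out. The share of calls that were higher was 52.6%, with 39.7% under upper-quartile factors, 60.8% with library totals and 37.4% without WT 2. In the related lists 3 genes were called, 8 under DESeq2, 0 under limma-voom and without robust estimation, 11 without the filter and 2 to 4 with a library left out. With the replicate block the counts were 1108 over all genes, 10 in the related lists and 0 members, but nothing pairs the mice, and same-numbered libraries correlated by 0.0588 in their departures from the group means. Signs turned for Reln with library totals (0.0059), without WT 2 and without DDI2-KO 1 (-0.14 to 0.065 over the libraries left out), for Col1a2 with library totals (0.030), under limma-voom (0.0026) and with a library left out (-0.26 to 0.27), and for Cxcl12 with library totals (0.011). Leaving out a library also turned Dcn (-0.13 to 0.019), Acta2 (-1.32 to 0.094), Col3a1 (-0.47 to 0.37) and the list genes Cxcl12 (-0.076 to 0.0053), Col18a1 (-0.74 to 0.12), Fn1 (-0.26 to 0.012), Upk3b (-0.38 to 0.72), Msln (-0.059 to 1.11), Ms4a1 (-0.91 to 0.13). The cause was not tested.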
